A study of Homo sapiens with 23 samples.

Results

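The peaks described here are all those that 5 ChIP-seq peak lists placed on human chromosome 19, a small chromosome that is rich in genes. They number 2279 of the 52708 peaks in the 5 lists. The members were chosen by position alone, and chromosome 19 was selected with its smaller share of the LSD1 peaks of day 3 already known, so that share, the day 3 to day 0 comparison and every overlap with the LSD1 list of day 3 are given as descriptions that support nothing by themselves. Within the chromosome, 4 stretches known for clusters of zinc finger genes were set beside the rest: 19.5 to 24.3 Mb, 36.5 to 38.5 Mb, 44.3 to 45.0 Mb and 52.0 to 59.1 Mb in the hg19 build. They are called the first, the second, the third and the fourth stretch below, and together they hold 14.6 Mb, against 40.5 Mb for the rest without the widest gap between peaks.

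LSD1 (KDM1A) is a demethylase that removes methyl groups from lysines of histone tails and acts in repressor complexes at promoters and enhancers. LSD1+8a is a splice isoform of it made in neurons, and SVIL (supervillin) is an actin-binding protein that the study's design names as a partner of this isoform. Many zinc finger genes of chromosome 19 stand side by side in clusters and encode proteins with a KRAB domain, which recruit the repressor TRIM28 and heterochromatin to repeated DNA. In a RefSeq table on the GRCh38.p14 assembly, used here only for counts and neighbours, chromosome 19 held 1451 protein-coding genes, 7.24% of the genome's 20056 and a number exceeded by 1 chromosome only. Of these genes, 264 carried a zinc finger symbol, which is 46.7% of all such symbols, and 240 of the 264 (90.9%) stood next to another one.

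All cells were SH-SY5Y, an established line from a human neuroblastoma, a tumour of nerve cell precursors, which matures toward neurons under retinoic acid followed by brain-derived neurotrophic factor (BDNF). Per the labels' protocols, retinoic acid was given at 10 µM during 4 days and BDNF, at 50 ng/mL, during the next 3 days, and day 0 and day 3 are stages of the BDNF step. The 5 lists, each from 1 library, are SVIL in control shRNA cells at day 3 (antibody S8695 from Sigma), LSD1+8a in control shRNA cells at day 3 (a homemade polyclonal antibody), LSD1 in control shRNA cells at day 3, LSD1 in LSD1+8a shRNA (knockdown) cells at day 0, and LSD1 in control shRNA cells at day 0 (the 3 LSD1 lists with antibody ab-17721 from Abcam). No group has a replicate, so no test between conditions was possible, and every interval in parentheses is a 95% interval made from peak counts, exact except for a quotient of 2 ratios, that covers counting error only. The number of reads per library is unknown, so a longer list cannot be told apart from a deeper library. The titles of the day 3 libraries lack the library number that ends the day 0 titles, and a difference in preparation or input between days cannot be told apart from the day itself. The lists hold positions only, so the cell type could not be checked against markers, and antibody specificity was not checked here.

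Chromosome 19 took very different shares of the lists. The SVIL list had 23 of its 1452 peaks there, or 1.58% (1.01 to 2.37). The LSD1+8a list had 178 of 3378, or 5.27% (4.54 to 6.08), and the LSD1 list of the same day had 484 of 20748, or 2.33% (2.13 to 2.55). The 2 lists for the same day and the same cells thus gave chromosome 19 shares with intervals that did not overlap, the larger one for LSD1+8a. This was not particular to chromosome 19. Chromosome 16 had 4.855% (4.155 to 5.635) for LSD1+8a and 2.66% (2.446 to 2.889) for LSD1 at day 3. Chromosome 17 had 6.365% (5.565 to 7.241) and 3.856% (3.598 to 4.127). On chromosome 22, with 1.421% (1.05 to 1.88) and 1.147% (1.007 to 1.301), the intervals overlapped. At day 0 the share was 7.0% (6.51 to 7.51) for LSD1 in knockdown cells, with 717 of 10248 peaks, and 5.19% (4.87 to 5.54) for LSD1 in control cells, with 877 of 16882. Among all chromosomes the knockdown share came after those of chromosomes 1 and 2 only, while the LSD1 share of day 3 ranked 20.

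On chromosome 19 the LSD1 list of control cells held 0.552 times as many peaks at day 3 as at day 0 (0.493 to 0.617), against 1.27 times as many on the other chromosomes. This was the lowest ratio of 23 chromosomes, and the next lowest were those of 3 other gene-rich chromosomes, with 0.957 on chromosome 16, 0.960 on chromosome 22 and 0.962 on chromosome 17. The intervals of these 3 lay above that of chromosome 19, the nearest reaching down to 0.80. Divided by the ratio of all other chromosomes, the chromosome 19 ratio was 0.436 (0.389 to 0.488).

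For LSD1 at day 0, knockdown cells had 0.818 times as many chromosome 19 peaks as control cells (0.740 to 0.903), the highest ratio of the 23 chromosomes. All others together had a ratio of 0.596, which makes the chromosome 19 ratio 1.37 times theirs (1.24 to 1.52). The next highest was chromosome X with 0.748 (0.615 to 0.909), whose interval overlapped that of chromosome 19. The direction of the count itself depended on the length of the lists, since with equally many top-scoring peaks of either list the ratio of knockdown to control cells was 1.11. In the plot of count ratios by chromosome, chromosome 19 therefore stands at opposite ends of the 2 comparisons. The LSD1 list of control cells at day 0 is the denominator of both.

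**Figure D1:**
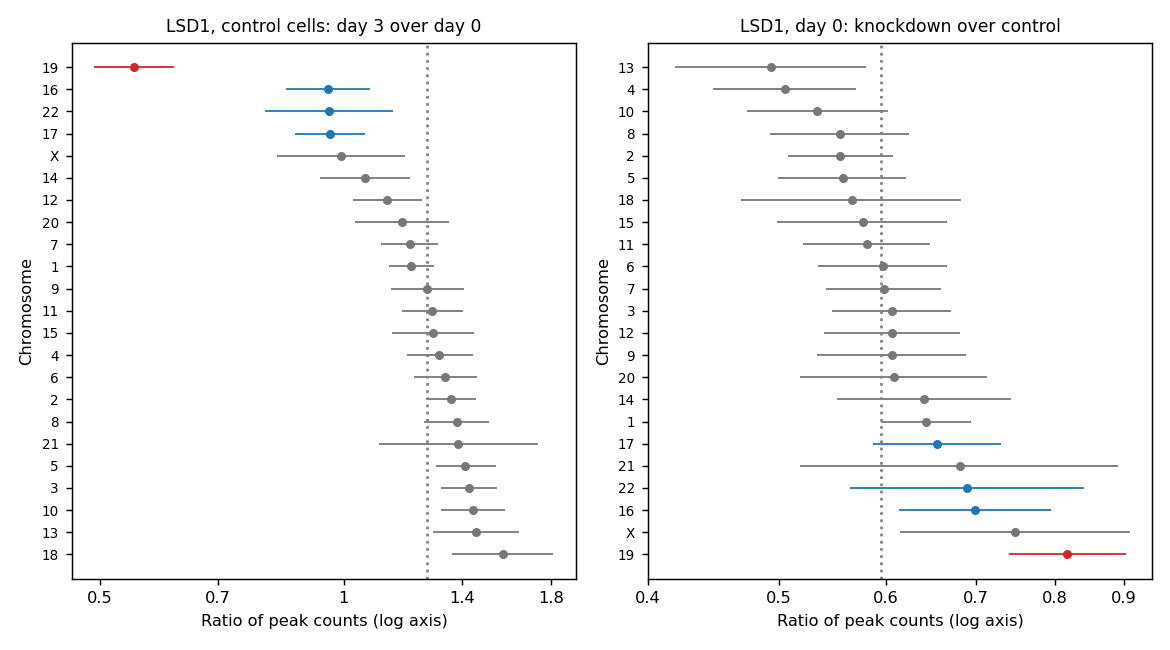
Ratio of LSD1 peak counts per chromosome (log axis) with exact 95% intervals for counting error, for day 3 over day 0 in control cells (left) and for knockdown over control cells at day 0 (right); red marks chromosome 19, blue chromosomes 16, 17 and 22, and the dotted line all chromosomes other than 19. Chromosome 19 has the lowest day ratio, 0.552, and the highest knockdown ratio, 0.818.

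The scores that the authors' caller gave the peaks rank them within a list, and the place of chromosome 19 in that ranking differed between lists. For LSD1 in knockdown cells at day 0, chromosome 19 took 14.7% (12.6 to 17.1) of the highest score decile and 3.52% (2.47 to 4.83) of the lowest. In control cells at day 0 it took 11.8% (10.3 to 13.4) of the highest decile and 3.67% (2.83 to 4.68) of the lowest. High scores at day 0 were thus over-represented on chromosome 19 in both kinds of cells. Median scores of chromosomes 16, 17 and 22 lay between that of chromosome 19 and that of all chromosomes other than 19. In knockdown cells they were 88.6, 87.9 and 83.4, against 100.3 on chromosome 19 and 78.9 on all others. In control cells at day 0 they were 84.4, 86.6 and 81.2, against 103.7 and 79.8. The LSD1+8a list of day 3 had the same order, with 8.58% (5.82 to 12.1) of its highest and 3.86% (2.07 to 6.51) of its lowest decile, although these intervals overlap. The LSD1 list of day 3 had no such slope, with 2.17% (1.59 to 2.89) of the highest and 2.85% (2.17 to 3.65) of the lowest decile. SVIL had 1 chromosome 19 peak among its 146 highest and 5 among its 145 lowest scoring peaks.

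At day 0 a larger share of the peaks in the zinc finger gene stretches than in the rest had high scores, although most of the high-scoring peaks lay in the rest. For LSD1 in control cells at day 0, 78 of 209 peaks in the stretches (37.3%, 30.7 to 44.3) were in the highest decile of the list, against 121 of 668 (18.1%, 15.3 to 21.3) in the rest of the chromosome. The first stretch had 3 of 22 (13.6%, 2.91 to 34.9), and its interval includes the share of the rest. In knockdown cells at day 0 the shares were 57 of 191 (29.8%, 23.5 to 36.9) in the stretches and 94 of 526 (17.9%, 14.7 to 21.4) in the rest. At day 3 the LSD1 shares were 10.6% (5.75 to 17.4) in the stretches and 8.86% (6.14 to 12.3) in the rest, both near the 10% that the decile holds by definition. For LSD1+8a the order of the estimates was the other way, with 13.8% (6.15 to 25.4) and 17.5% (11.2 to 25.5), and the intervals overlapped widely.

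**Figure D2:**
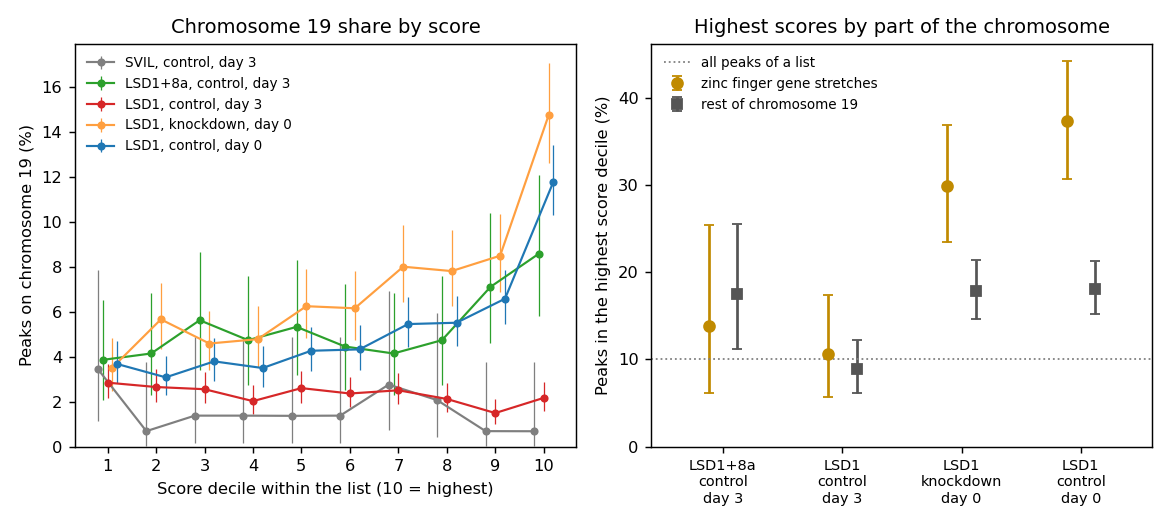
Left, the share of each list's peaks (%) on chromosome 19 by score decile within the list, where 10 holds the highest scores; right, the share of peaks (%) in the highest decile for the zinc finger gene stretches and for the rest of chromosome 19, with the 10% of a whole list as a dotted line. Bars are exact 95% binomial intervals; the day 0 lists climb to 14.7% and 11.8% on the left, and on the right their stretches stand at 29.8% and 37.3%, while the LSD1 list of day 3 stays flat.

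The peaks themselves had ordinary sizes for their lists. On chromosome 19 the median length was 285 bp for SVIL, 802 bp for LSD1+8a, 938.5 bp for LSD1 at day 3, 797 bp for LSD1 in knockdown cells and 857 bp for LSD1 in control cells at day 0. On the other chromosomes the medians were 315, 832, 1047, 766 and 833 bp in the same lists. The medians of chromosome 19 thus lay below those of the other chromosomes in the day 3 lists and above them at day 0. Median tags per peak, the reads under a peak, followed the same order for LSD1, with 45 on chromosome 19 and 50 elsewhere at day 3, 32 and 28 in knockdown cells, and 31 and 26 in control cells at day 0. In the stretches the median was 48 tags for LSD1 at day 3, 39 in knockdown cells and 38 in control cells at day 0, against 44, 30 and 29 in the rest of the chromosome.

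With all 4 stretches added up, the ratio of their peak density to that of the rest had an interval that includes 1 in each of the 5 lists. LSD1+8a had 3.97 peaks per Mb (3.02 to 5.14) in the stretches and 2.96 (2.46 to 3.54) in the rest, a ratio of 1.34 (0.962 to 1.85). The LSD1 ratio was 0.945 (0.764 to 1.16) at day 3, 1.01 (0.849 to 1.19) in knockdown cells and 0.868 (0.739 to 1.02) in control cells at day 0. SVIL had 7 peaks in the stretches and 16 in the rest, a ratio of 1.21 whose interval of 0.422 to 3.12 leaves either direction possible. Estimates so near 1 passed to its other side under some settings. Limiting lists to their upper 50% by score gave 0.616 for SVIL and, for the control LSD1 list of day 0, 1.12. With stretches narrowed by 0.25 Mb it was 0.803 for SVIL and 0.904 for LSD1 in knockdown cells, and with the gap kept in the rest it was 1.04 for LSD1 at day 3.

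The first stretch, which reaches to the gap around the centromere, was sparse in the 4 lists for LSD1 and LSD1+8a. Its density was 0.351 times that of the rest (0.112 to 0.843) for LSD1+8a, with 5 peaks. For LSD1 it was 0.444 times (0.264 to 0.704) at day 3, 0.224 times (0.122 to 0.380) in knockdown cells and 0.278 times (0.173 to 0.424) in control cells at day 0. The other 3 stretches were pooled after the low values of the first had been seen, so their ratios, which leaving it out raises, are a description. The ratio was 1.83 (1.30 to 2.54) for LSD1+8a, with 53 peaks in 9.8 Mb, and 1.39 (1.17 to 1.65) for LSD1 in knockdown cells, with 177. The control-cell ratios for LSD1 were 1.19 (0.947 to 1.48) at day 3 and 1.16 (0.978 to 1.36) at day 0, and both intervals include 1.

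The third stretch, the shortest with 0.7 Mb, was the densest for all 3 LSD1 lists. It held 24.3 peaks per Mb (14.1 to 38.9) for LSD1 at day 3, 25.7 (15.2 to 40.6) in knockdown cells and 27.1 (16.3 to 42.4) in control cells at day 0. The second stretch was the densest for LSD1+8a, with 14 peaks in 2.0 Mb, or 7.0 per Mb (3.83 to 11.7). SVIL had 3, 2, 0 and 2 peaks in the 4 stretches from the first on. Along the edges of the stretches, the 0.25 Mb just inside held 3, 9, 30, 43 and 46 peaks in the SVIL, LSD1+8a, LSD1 day 3, LSD1 knockdown and LSD1 day 0 control lists, and the 0.25 Mb just outside held 1, 4, 8, 14 and 22. The 2 kinds of margin are not alike, because the outer one past the first stretch lies in the widest gap between peaks and the one past the fourth lies beyond the last peak of the chromosome.

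**Figure D3:**
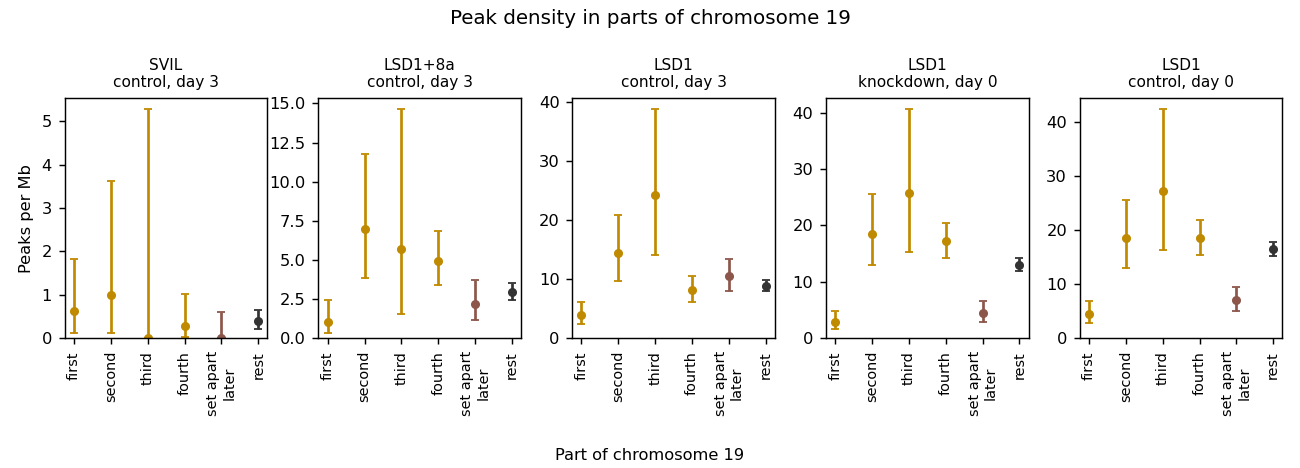
Peaks per Mb (vertical axes, scaled per list) in the 4 zinc finger gene stretches in order, in the 30 to 36 Mb part that was set apart after the values were seen, and in the rest of chromosome 19, which includes that part; bars are exact 95% Poisson intervals. The first stretch is sparse for LSD1 and LSD1+8a, with 1.04 to 4.58 peaks per Mb, and the part set apart is above the rest only in the LSD1 list of day 3, with 10.5.

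The estimated ratio of LSD1 peaks of day 3 to those of day 0 differed between the parts that follow. Their intervals overlapped, so these values do not show an uneven spread. In the fourth stretch, at the far end of the chromosome, day 3 had 58 peaks and day 0 had 131, a ratio of 0.443 (0.319 to 0.608). The first 3 stretches had 19, 29 and 17 peaks at day 3 and 22, 37 and 19 at day 0, with ratios of 0.864, 0.784 and 0.895 whose intervals all include 1. The rest of the chromosome had 361 peaks at day 3 and 668 at day 0, a ratio of 0.540 (0.474 to 0.615). This ratio also lies inside the intervals of the first 3 stretches. On the short arm side of the gap the ratio was 0.495 (0.414 to 0.589), with 194 peaks at day 3 and 392 at day 0. The long arm side had 290 peaks at day 3 and 485 at day 0, and its ratio was 0.598 (0.515 to 0.693).

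In 1 Mb windows, LSD1 in control cells had fewer peaks at day 3 than at day 0 in 45 of the 57 windows with a peak, more in 10 and the same number in 2. The largest deficits lay at 10 to 11 Mb, with 9 peaks at day 3 and 29 at day 0, at 50 to 51 Mb, with 9 and 28, and at 0 to 1 Mb, with 8 and 25. A second count scaled each list to its own chromosome 19 total and took windows with at least 5 peaks in one list and a difference of at least 2 times. By this measure 8 of 52 windows (15.4%) were higher at day 3, against 14.3% of the windows of all chromosomes, and 6 of 52 (11.5%) were lower, against 9.88%. Both shares are near those of the whole genome.

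Of the 8 higher windows, 6 were the consecutive ones from 30 to 36 Mb. In order along the chromosome these windows had 12, 11, 8, 13, 9 and 10 LSD1 peaks at day 3 and 5, 8, 3, 11, 6 and 9 at day 0, so that day 3 was higher in each of them. Summed, this part of the long arm next to the centromere had 63 LSD1 peaks at day 3 and 42 at day 0, a ratio of 1.5 (0.999 to 2.27), while everything outside it had 421 and 835, a ratio of 0.504 (0.447 to 0.568). It was chosen after its values were seen, which makes the contrast a description. It held 13.0% (10.2 to 16.3) of the chromosome's LSD1 peaks at day 3 and 4.79% (3.47 to 6.42) at day 0. LSD1 in knockdown cells had 27 peaks there, LSD1+8a had 13, and SVIL had none, a count that allows up to 0.615 per Mb.

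The peaks of day 3 in this 6 Mb part were also mostly at other places than those of day 0. Only 14 of its 63 LSD1 peaks (22.2%, 12.7 to 34.5) overlapped a peak of day 0 in control cells, and 8 (12.7%, 5.65 to 23.5) overlapped one of knockdown cells. Their scores were not high, since 5 of the 63 (7.94%) were in the highest decile of the list. The 2 highest scoring LSD1 peaks of day 3 on chromosome 19 without overlap at day 0 in control cells both lay here. They were a peak at 31398896 to 31400365 with 85 tags, which no other list shared, and a peak of 2877 bp at 31181662 to 31184538 with 138 tags, which overlapped a peak of 20 tags in knockdown cells.

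For LSD1 at day 0, knockdown cells had fewer peaks than control cells in 39 of 56 windows, more in 7 and the same number in 10. The largest deficits were at 0 to 1 Mb, with 11 peaks in knockdown and 25 in control cells, at 10 to 11 Mb, with 16 and 29, and at 47 to 48 Mb, with 17 and 30. The largest excess was at 39 to 40 Mb, with 20 in knockdown and 15 in control cells. After scaling, no window of 50 was at least 2 times higher in knockdown cells, against 4.1% of windows over all chromosomes, and 2 (4.00%) were at least 2 times lower, against 13.5%. Chromosome 19 windows with a peak held a median of 17 peaks in control and 14 in knockdown cells, while 5 peaks were enough to be counted. Fuller windows reach a difference of 2 times less easily by counting error, and the shares were not adjusted for this. In the 4 stretches the counts were 191 in knockdown and 209 in control cells, a ratio of 0.914 (0.747 to 1.12), and in the rest they were 526 and 668, a ratio of 0.787 (0.701 to 0.884).

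The same window was the fullest in all 3 LSD1 lists. At 49 to 50 Mb, outside the stretches, lay 20 peaks at day 3 (12.2 to 30.9), 30 in knockdown cells (20.2 to 42.8) and 37 in control cells at day 0 (26.1 to 51.0). LSD1+8a had its most peaks, 11 (5.49 to 19.7), at 1 to 2 Mb, followed by 8 each at 49 to 50 and 57 to 58 Mb, and its count at 1 to 2 Mb was above that of LSD1 on the same day, which was 8. SVIL reached 3 peaks at 12 to 13 and at 47 to 48 Mb, and 43 of its windows were empty. In the plot of windows along the chromosome, the fourth stretch lies at the far end. Its density over that of the rest was 1.66 (1.11 to 2.44) for LSD1+8a and 0.916 (0.682 to 1.21) for LSD1 at day 3. For LSD1 at day 0 it was 1.32 (1.08 to 1.61) in knockdown and 1.12 (0.920 to 1.35) in control cells. These intervals overlap.

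**Figure D4:**
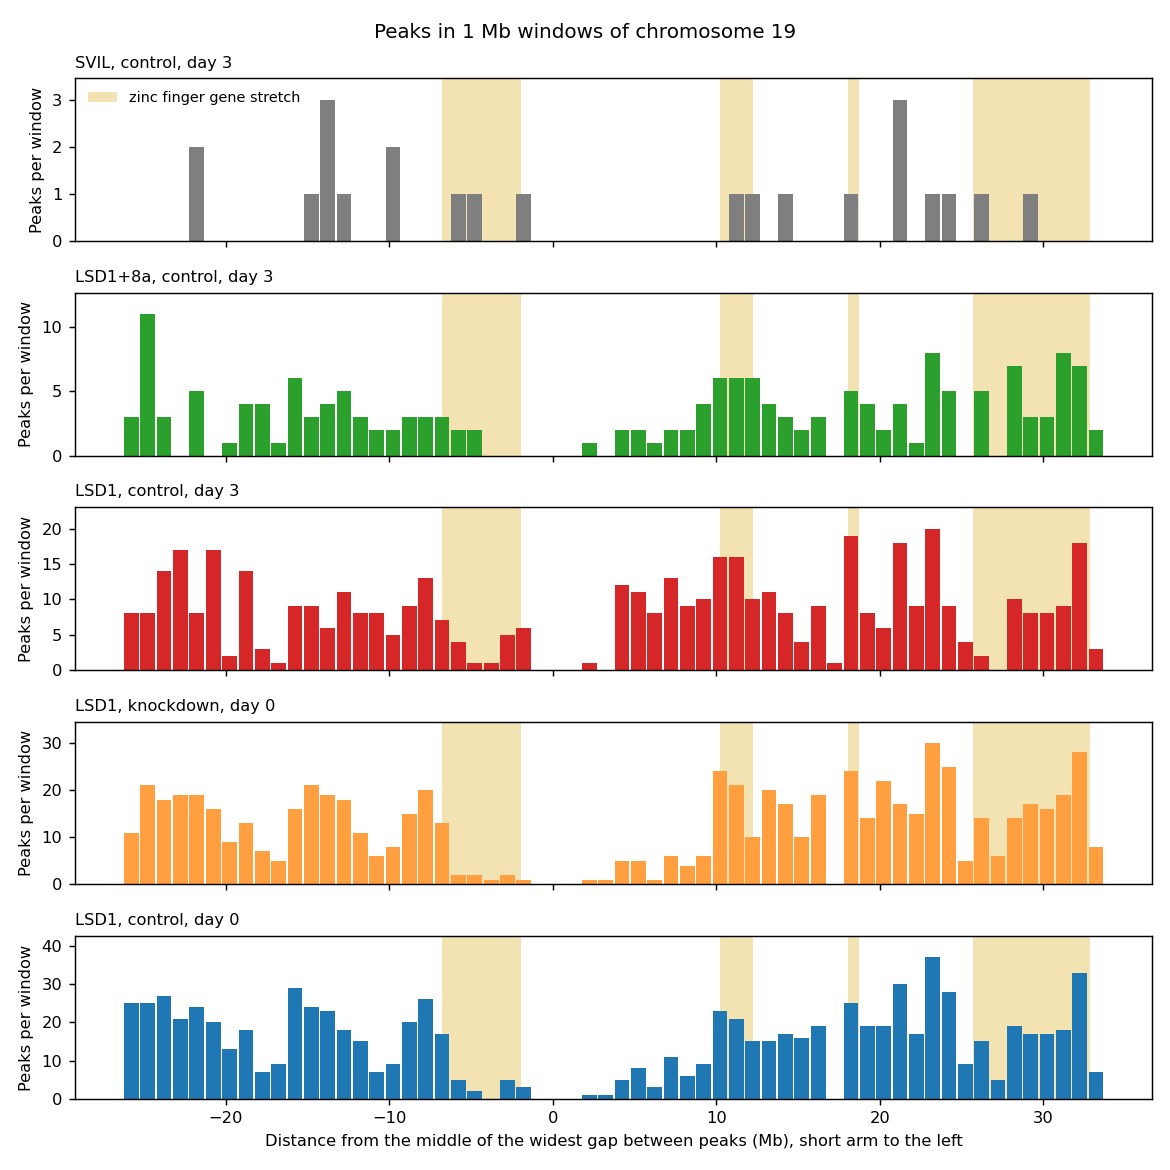
Peaks per 1 Mb window along chromosome 19 for the 5 lists (vertical axes scaled per list), against the distance in Mb from the middle of the widest gap between peaks, with the zinc finger gene stretches shaded. LSD1 counts are highest in the same window in 3 lists, 20 at day 3, 30 in knockdown and 37 in control cells at day 0, and the 6 consecutive windows between the gap and the second stretch that hold 8 to 13 peaks at day 3 hold 3 to 11 in control cells at day 0.

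Which peaks were shared was asked next, counting a peak as shared when a peak of another list overlapped it by at least 1 bp. On chromosome 19, 312 of the 484 LSD1 peaks of day 3 (64.5%, 60.02 to 68.7) overlapped a peak of day 0 in control cells, against 40.1% of the whole day 3 list and 39.5% on the other chromosomes. This was the highest share of 23 chromosomes, and it was higher in each of the 10 score deciles. In the other direction, 312 of the 877 peaks of day 0 (35.6%, 32.4 to 38.9) overlapped a peak of day 3, against 50.1% of the whole day 0 list, which put chromosome 19 at rank 22. Chromosome 19 thus had few LSD1 peaks at day 3, and most of these were places also listed at day 0.

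The low share of day 0 peaks found again at day 3 was seen at low scores and not at the highest. In the highest score decile of day 0, 130 of 199 chromosome 19 peaks (65.3%, 58.3 to 71.9) overlapped a peak of day 3, against 64.1% on the other chromosomes. In the lowest 5 deciles it was 48 of 309 (15.5%, 11.7 to 20.1), against 43.8%. The high share of day 3 peaks found at day 0 was also widest apart at low scores, with 58.2% (51.96 to 64.2) on chromosome 19 and 28.9% elsewhere in the lowest 5 deciles, and with 88.9% (75.9 to 96.3) and 73.7% in the highest decile.

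Sharing was strongest in the zinc finger gene stretches other than the first. Of the LSD1 peaks of day 3, 99 of 123 (80.5%, 72.4 to 87.1) overlapped a day 0 peak in the stretches and 213 of 361 (59%, 53.7 to 64.1) in the rest. By stretch the counts were 5 of 19, 27 of 29, 16 of 17 and 51 of 58, so the first stretch, with 26.3% (9.15 to 51.2), stood apart from the other 3. Of the LSD1 peaks of day 0, 100 of 209 (47.8%, 40.9 to 54.9) overlapped a day 3 peak in the stretches and 212 of 668 (31.7%, 28.2 to 35.4) in the rest. Day 3 peaks lay at 27 of 37 day 0 peaks in the second stretch, 16 of 19 in the third and 52 of 131 in the fourth (39.7%, 31.3 to 48.6). The share of the fourth was below the 50.9% of the other chromosomes. In the highest decile of day 0, stretches and rest had 67.95% (56.4 to 78.1) and 63.6% (54.4 to 72.2). In the lowest 5 deciles they had 10.9% (3.63 to 23.6) and 16.35% (12.1 to 21.4). For day 3 peaks of the lowest 5 deciles the shares were 72.5% (60.4 to 82.5) and 53.1% (45.8 to 60.3).

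For LSD1 at day 0, control peaks of chromosome 19 were found in knockdown cells more often than those elsewhere, while the reverse share was close to that of peaks with similar scores. Of the knockdown peaks, 549 of 717 (76.6%, 73.3 to 79.6) overlapped a control peak, against 69.4% of the whole list, and of the control peaks, 545 of 877 (62.1%, 58.8 to 65.4) overlapped a knockdown peak, against 42.1%. Both were the highest shares of 23 chromosomes. Peaks of other chromosomes in the same score deciles had 76.1% for the first direction, close to the chromosome 19 share, and 51.2% for the second, which chromosome 19 exceeded in 10 of 10 deciles. In the highest decile, 151 of 151 knockdown peaks of chromosome 19 (97.6 to 100%) overlapped a control peak, against 97.7% on the other chromosomes, a share inside that interval. Over all scores the stretches again had more sharing than the rest, with 158 of 209 control peaks (75.6%, 69.2 to 81.3) and 387 of 668 (57.9%, 54.1 to 61.7) found in knockdown cells. Within score groups the intervals overlapped. In the highest decile stretches and rest had 97.4% (91.0 to 99.7) and 95.9% (90.6 to 98.6). In the lowest 5 deciles they had 43.5% (28.9 to 58.9) and 31.2% (25.6 to 37.2).

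Most LSD1+8a peaks of chromosome 19 lay at places of LSD1 at day 0. For their own day, an LSD1 peak of day 3 lay at 100 of the 178 LSD1+8a peaks (56.2%, 48.6 to 63.6), against 59.6% of the whole LSD1+8a list, a difference within counting error. In 3 pairs added after the values were seen, 142 (79.8%, 73.1 to 85.4) overlapped an LSD1 peak of control cells at day 0, against 60.9%, and 137 (76.97%, 70.1 to 82.9) overlapped one of knockdown cells at day 0, against 52.4%. The list of day 3 has fewer LSD1 peaks on chromosome 19 than that of control cells at day 0, 484 and 877, which was known when the chromosome was chosen, so the contrast between days is not a separate result. On the other chromosomes the shares at LSD1 peaks of control cells were 59.75% for day 3 and 59.84% for day 0. Both day 0 shares of chromosome 19 were the highest of 23 chromosomes and exceeded peaks of the same score deciles elsewhere in 10 of 10 deciles. For control cells at day 0, chromosome 22 had 72.9% (58.15 to 84.7) and chromosome 16 had 70.7% (63.1 to 77.6). For knockdown cells they had 60.4% (45.3 to 74.2) and 65.85% (58.05 to 73.1). All these intervals overlap those of chromosome 19. The intervals of chromosome 17, with shares of 61.4% and 56.3%, lie below them. In the stretches 52 of 58 LSD1+8a peaks (89.7%, 78.8 to 96.1) overlapped a day 0 control peak, all 14 of the second stretch among them, against 90 of 120 (75%, 66.3 to 82.4) in the rest. The share found in the LSD1 list of day 3 depends on the lengths of the lists, because with as many top-scoring LSD1 peaks as LSD1+8a peaks it was 15.2%.

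Split by the LSD1 lists that shared them, 95 of the 178 LSD1+8a peaks (53.4%, 45.8 to 60.9) had LSD1 at both days, with either day 0 list counted. A further 61 (34.3%, 27.3 to 41.7) had LSD1 at day 0 only, against 24.4% on the other chromosomes. With LSD1 at day 3 only there were 5 (2.81%, 0.918 to 6.43), against 16.5%, and none of these was in the stretches. The last 17 (9.55%, 5.66 to 14.9) had no LSD1 peak in any of the 3 lists, against 15.9%.

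From the side of LSD1, 101 of 484 day 3 peaks (20.9%, 17.3 to 24.8) overlapped an LSD1+8a peak, against 9.69% of the whole list, the highest share of 23 chromosomes. Chromosomes 17 and 16 had 15.6% (13.2 to 18.3) and 14.7% (11.8 to 17.9), with intervals that overlap that of chromosome 19. Chromosome 22 had 10.5% (6.91 to 15.1). In the fourth stretch of chromosome 19 the share was 22 of 58 (37.9%, 25.5 to 51.6), and in the rest of that chromosome 65 of 361 (18.01%, 14.2 to 22.4). With equally many top-scoring peaks of either list the chromosome 19 share was 40.9%. Of the LSD1 peaks of day 0, 137 of 717 (19.1%, 16.3 to 22.2) overlapped an LSD1+8a peak, against 17.4%, in knockdown cells, and 144 of 877 (16.4%, 14.03 to 19.04), against 12.3%, in control cells. Peaks of other chromosomes in the same score deciles had 21.2% for knockdown cells, with chromosome 19 higher in 3 of 10 deciles, and 15.4% for control cells, with chromosome 19 higher in 5 of 10. Both of these shares lie inside the chromosome 19 intervals.

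The widest difference from the genome was between LSD1 at day 3 and LSD1 in knockdown cells at day 0. On chromosome 19, 260 of 484 day 3 peaks (53.7%, 49.2 to 58.2) overlapped a knockdown peak, against 22.2% of the whole list, and peaks of other chromosomes in the same deciles had 20.8%. In the highest decile it was 39 of 45 (86.7%, 73.2 to 94.9), against 46.6% elsewhere. In the stretches the share was 76.4% (67.9 to 83.6) and in the rest 46.0% (40.8 to 51.3). The reverse share was low, with 261 of 717 knockdown peaks (36.4%, 32.9 to 40.0) found at day 3, against 45.5%. In the plot of peaks found in a second list, the stretches lie above the other chromosomes with intervals apart in 7 of 10 directions. In the 3 directions that look into the LSD1 list of day 3, from LSD1+8a and from both day 0 lists, the intervals overlap. These shares were not adjusted for score, and the directions reuse the same lists. Of the 7, knockdown peaks in control cells and control peaks of day 0 at LSD1+8a had overlapping intervals in the highest decile and in the lowest 5. In the lowest 5 the shares were 55.9% (42.4 to 68.8) against 53.55%, and 4.35% (0.531 to 14.8) against 7.1%. The others of the 7 stayed apart in the lowest 5 deciles.

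**Figure D5:**
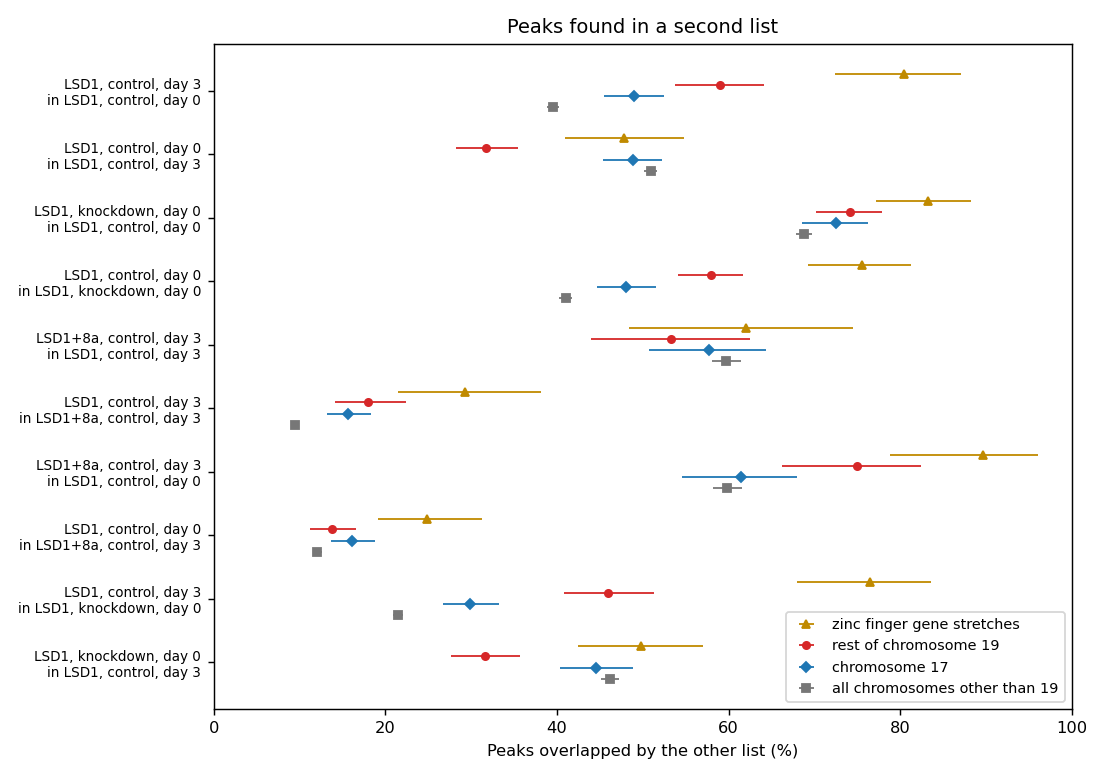
Share of peaks (%) of the list named first that overlap a peak of the list named second by at least 1 bp, for the zinc finger gene stretches, the rest of chromosome 19, chromosome 17 and all chromosomes other than 19, with exact 95% binomial intervals. Of LSD1 peaks of day 3, 80.5% in the stretches and 59% in the rest are found at day 0 in control cells, against 39.5% on the other chromosomes.

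Each of the 877 LSD1 peaks of control cells at day 0 could be followed into the other 2 LSD1 lists, so the shares that follow rest on the same day 0 list. In knockdown cells at day 0 but not at day 3 were 311 (35.5%, 32.3 to 38.7), against 19.4% on the other chromosomes. The opposite kind, at day 3 but not in knockdown cells, numbered 78 (8.89%, 7.09 to 10.98), against 29.3%. In both lists were 234 (26.7%, 23.8 to 29.7), against 21.6%, and in neither 254 (28.96%, 26.0 to 32.1), against 29.7%. Of the day 0 peaks found again at day 3, 93 of 312 (29.8%, 24.8 to 35.2) carried an LSD1+8a peak, against 15.5% on the other chromosomes. Of those not found again it was 51 of 565 (9.03%, 6.80 to 11.7), against 8.45% elsewhere, which lies inside the interval.

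Merging the peaks of all lists gave 1206 regions on chromosome 19. Regions with LSD1 in knockdown and control cells at day 0 and in no other list were the most frequent kind, with 267 (22.1%, 19.8 to 24.6), against 8.09% of the regions elsewhere. Regions with LSD1 at day 3 alone numbered 139 (11.5%, 9.78 to 13.5), against 34.4%. Regions with LSD1+8a and all 3 LSD1 lists but no SVIL numbered 79 (6.55%, 5.22 to 8.10), against 2.47%. In 1 list only were 530 regions (43.9%, 41.1 to 46.8), against 58.2% elsewhere.

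The strongest single region of the chromosome was shared by all lists but SVIL. It spanned 42746396 to 42747899 in the LSD1 list of day 3, outside the stretches, and had 122 tags for LSD1+8a, 419 for LSD1 at day 3, 188 for LSD1 in knockdown cells and, in control cells at day 0, 171. Its ranks by score over the whole lists were 26, 2, 5 and 11 in the same order. A region at 47353742 to 47354780 ranked 857 for LSD1+8a, 7 for LSD1 at day 3, 38 in knockdown cells and 105 in control cells at day 0, with 39, 242, 93 and 98 tags. A region at 7616067 to 7616803 was alike, with 32, 215, 100 and 106 tags and ranks of 3003, 12, 18 and 33. Both were thus near the top for LSD1 in all 3 lists and far lower for LSD1+8a.

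Other strong LSD1 peaks had no listed LSD1+8a peak, which does not show that the protein was absent. The region at 4791122 to 4792136 had 215 LSD1 tags at day 3, 124 in knockdown cells and 145 in control cells at day 0, with ranks of 45, 15 and 12, and no LSD1+8a or SVIL peak. A region at 3184733 to 3186376 had 189, 79 and 90 tags in the same order and likewise no LSD1+8a or SVIL peak.

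The LSD1+8a list had its own leading peaks. Its highest on the chromosome, at 57874199 to 57875092 in the fourth stretch, had 145 tags, a fold enrichment of 117 as the authors gave it, and rank 7 of 3378. There LSD1 had 52 tags at rank 5110 at day 3, 50 at rank 3449 in knockdown cells and 49 at rank 1112 in control cells at day 0. The peak at 12916925 to 12917791 had 115 LSD1+8a tags and rank 29, no LSD1 peak at day 3, and LSD1 peaks of 32 tags in knockdown and 34 tags in control cells at day 0. The peak at 1591983 to 1592819, with 77 tags, a fold of 97.0 and rank 34, was in the LSD1+8a list alone. Strong LSD1+8a peaks on this chromosome thus included places with no LSD1 peak at day 3 or in any list. The highest was not such a place, since its LSD1 rank in control cells at day 0 was 1112 of 16882.

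Peaks of LSD1+8a and high-scoring peaks of LSD1 also met inside the stretches. At 20162441 to 20163592 in the first stretch, LSD1+8a had 80 tags and rank 171, and LSD1 had 154 tags at day 3, 102 in knockdown cells and 127 in control cells at day 0. The highest LSD1 peak of day 3 in the stretches, at 44616882 to 44617968 in the third stretch, had 191 tags and rank 25. There LSD1+8a had 40 tags at rank 1080 only, and LSD1 had 73 tags in knockdown cells and 80 in control cells at day 0. Outside the stretches, the region at 49298325 to 49299116, in the fullest LSD1 window, had 56 tags for LSD1+8a and 139, 82 and 89 for LSD1 at day 3, in knockdown cells and in control cells at day 0.

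Several strong peaks of day 0 had no LSD1 peak at day 3. At 19774184 to 19775108 in the first stretch, LSD1 had 75 tags in knockdown cells at rank 57 and 87 tags in control cells at rank 36, the highest score of the control list in the stretches. At 15333716 to 15335133 it had 99 tags in knockdown and 127 in control cells. The highest knockdown peak of the stretches, at 58912188 to 58913190 in the fourth stretch, had 112 tags at rank 20, against 97 tags at rank 231 in control cells. None of these 3 regions had an LSD1+8a or SVIL peak.

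The leading LSD1 peaks of day 0 without a partner in the other kind of cells had lower ranks than those above. The 2 highest scoring knockdown peaks without a control peak, at 55816790 to 55817399 in the fourth stretch and at 42579589 to 42580592, had 28 and 36 tags and ranks of 1583 and 1605. The 2 highest control peaks without a knockdown peak, at 3374169 to 3376130 and 11308276 to 11309117, had 87 and 38 tags and ranks of 501 and 680. Both had an LSD1 peak at day 3, with 89 and 49 tags.

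SVIL peaks on the chromosome were few, and none had many tags. Their tags ran over 11, 18 and 27 as lowest, median and highest, against a median of 20 and a highest of 1093 on the other chromosomes. Their median fold was 19.1, against 18.2 elsewhere, and their median score 90.3, against 92.1, so by these values they were near the middle of the list. The highest scoring one, at 4352200 to 4352443, had 27 tags, a fold of 54.4 and rank 102 of 1452, and no other list had a peak there. The next, at 24269848 to 24270283, had 25 tags and lay at the edge of the gap, at the very end of the first stretch, together with LSD1 peaks of 39 tags at day 3 and 25 tags in control cells at day 0. The peak at 49600600 to 49600930 had 24 tags and no LSD1+8a peak or LSD1 peak of day 3.

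An LSD1+8a peak lay at 6 of the 23 SVIL peaks (26.1%, 10.2 to 48.4), against 18.6% of the whole SVIL list, and an LSD1 peak of day 3 at 12 (52.2%, 30.6 to 73.2), against 58.7%. Neither differs from the background beyond counting error. From the other side, 6 of 178 LSD1+8a peaks (3.37%, 1.25 to 7.19) had SVIL, against 7.7%, and 12 of 484 LSD1 peaks of day 3 (2.48%, 1.29 to 4.29), against 3.97%. The 7.7% lies above the interval. For LSD1+8a, chromosome 16 had 3.66% (1.35 to 7.79), chromosome 22 had 2.08% (0.0527 to 11.07) and chromosome 17 had 9.30% (5.775 to 14.0). These intervals overlap that of chromosome 19, so the low share does not set it apart from them. Only 23 SVIL peaks lie on chromosome 19, which limits both shares. In the highest score decile of LSD1 at day 3, none of 45 chromosome 19 peaks overlapped SVIL, which allows up to 7.87%, against 14.7% on the other chromosomes. The share of SVIL peaks at LSD1 depended on the length of the LSD1 list, since with equally many top-scoring peaks of either list it was 0%.

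The regions in all 5 lists numbered 5 on chromosome 19 (0.415%, 0.135 to 0.965), against 0.433% of the regions elsewhere. At 44122844 to 44124691, just before the third stretch, there were 18 tags for SVIL, 71 for LSD1+8a, 65 for LSD1 at day 3, 25 in knockdown cells and 43 in control cells at day 0. At 47132689 to 47133668 there were 20, 35, 64, 32 and 30 tags in the same order. The only one inside a stretch, at 52073882 to 52074908 in the fourth, had 12, 30, 28, 68 and 73 tags, so that LSD1 had the most tags at day 0 there. The other 2, at 4723450 to 4724356 and 50083363 to 50084364, had 14 and 18 SVIL tags. None of the 5 was among the leading peaks of LSD1 at day 3, where their ranks ran between 2866 and 19280.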

How the data were processed

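Chromatin was immunoprecipitated from SH-SY5Y cells and sequenced in single reads of 50 bp. CASAVA, Bowtie 1.0.0 and the builds mm9 and hg19 are listed, per the submitters' processing notes. For the peak caller, its threshold, the depth and the input behind each list, details were not given in the sources used here. Deposited by the authors was 1 peak list per library, with a whole-number count of tags per peak, a fold enrichment (ratio) and a score whose column name was lost, all used as deposited, and with positions read as hg19. Fold and score were made by the authors' caller and were used only to rank and describe peaks within a list, except where the same lowest score was set for all lists as an alternative.

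Groups came from the sample titles. The series has 23 samples, and 9 of its 14 ChIP samples were not analysed here. The members, the stretches and the rules were chosen with earlier results of these data known. Peaks were placed by their summits. The rest of the chromosome leaves out the widest gap between peaks, 4.01 Mb. Shares have exact (Clopper-Pearson) 95% binomial intervals, counts exact Poisson intervals, ratios of counts exact conditional ones and a quotient of 2 ratios one on the log scale from the 4 counts, and none was tested because each group is 1 library. Score deciles were formed within each list, and shares at the same deciles weight the other chromosomes by the deciles of the chromosome 19 peaks. Named regions are, in each list, the 3 chromosome 19 peaks with the best scores and the highest in the stretches, the 3 best shared and the 2 best unshared peaks of each pair, and regions in all 5 lists. The pairs of day 0 LSD1 lists with LSD1+8a, and of LSD1 at day 3 with knockdown cells, the 30 to 36 Mb part and the pooling of the last 3 stretches were added after the values were seen. Functions were checked on simulated data. Genes could not be assigned to peaks, because the gene table used is on GRCh38.p14. Python 3.11, pandas 2.3.3, numpy 2.4.6, scipy 1.17.1 and matplotlib 3.10.9 were used. Alternatives changed 1 choice at a time.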

Additional observations from a re-analysis of the deposited data

How the results depend on the processing

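Of 130 alternatives, 97 were counted as unchanged, 32 as moved and 1 as reversed. Unchanged meant within the 95% interval of the reported value, except for 2 counts of windows with fewer peaks, which have no interval. Moving the windows by 0.5 Mb took these counts from 45 to 47 for day 3 and from 39 to 41 for knockdown cells. Limiting lists by score moved the chromosome 19 share. With the upper 50% of each list it was 2.13% for LSD1 at day 3, 9.04% in knockdown cells and 6.73% in control cells at day 0. With 1452 top-scoring peaks from each list it was 6.13% for LSD1+8a, 2.07% for LSD1 at day 3, 12.9% in knockdown and 12.5% in control cells at day 0. A common lowest score of 71.7 gave 8.66% and 6.32% in knockdown and control cells, and covered bases gave 2.02% for LSD1 at day 3. The density ratio of stretches over rest for control cells at day 0 was 1.12 with the upper 50% and 1.02 with the common score. The count ratio of day 3 over day 0 was 0.389 with the upper 50% and 0.430 with the same number of peaks, and that of knockdown over control was 1.11 with the same number, which reverses its direction.

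Shares of overlap moved as follows. Of LSD1 peaks of day 0, 25%, 29.3% and 30.8% were found at day 3 with the upper 50%, the same number and the common score. With the same number, 66.5% of knockdown peaks were found in control cells and 73.1% the other way. For LSD1+8a in LSD1 of day 3 the upper 50% gave 41.8% and the same number 15.2%, and the other way the same number gave 40.9% and the common score 16.01%. With a reciprocal overlap of 50%, 4.35% of SVIL peaks were found in the LSD1+8a list and 4.35% in the LSD1 list, and 0.562% and 0.207% of those lists in SVIL; SVIL peaks are much shorter. SVIL in LSD1 was 18.2% with the upper 50%, 0% with the same number and 21.7% with the common score, and the other way 0.905% and 0% with the first 2 of these. The causes were not tested. Windows moved by 0.5 Mb, merging within 1 kb, placement by midpoint, narrowed stretches, edges up to 1 kb apart, autosomes and X only, and keeping the gap moved none of the values that have an interval out of it. No paired analysis was possible because each group is 1 library. No replicate could be left out for the same reason, and unknown depth limits every count.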

Other observations

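LSD1 peaks of chromosome 19 were closely spaced at day 0. The median distance from one peak to the next was 34.2 kb for LSD1 in knockdown cells and 29.2 kb in control cells at day 0, against 60.01 and 41.6 kb on chromosome 17, and 38.4% and 44.0% of neighbours on chromosome 19 were at most 25 kb apart. At day 3 the order of the 2 chromosomes was the other way, with a median of 51.1 kb for LSD1 on chromosome 19 and 43.5 kb on chromosome 17. LSD1+8a peaks were 176 kb apart on chromosome 19 and 184 kb on chromosome 17.

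Where LSD1 peaks of day 3 and of day 0 in control cells overlapped, their summits were a median of 45 bp apart on chromosome 19, over 312 pairs, and 68.0 bp apart on the other chromosomes, over 8008. For knockdown and control cells at day 0 the medians were 37.0 and 49.0 bp. For LSD1+8a and LSD1 at day 3 they were 91.5 bp on chromosome 19, over 100 pairs, and 85.0 bp elsewhere. Fragments of 300 to 600 bp were selected for sequencing, so distances of this size are below what fragment length resolves for a single peak.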
